A study of Mus musculus with 12 samples.

Results

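The genes described here are the 7 that encode the subunits of the NMDA receptor, Grin1, Grin2a, Grin2b, Grin2c, Grin2d, Grin3a and Grin3b. They were taken by symbol from a table of 24015 genes, and all 7 were present. RNA had been counted in sorted nuclei of the mouse hippocampus. The 12 libraries carried the titles Early, Late, Reactivated and Basal, with 3 libraries to a title. All 7 genes were among the 15668 that had at least 10 counts in at least 3 of the 12 libraries, and Grin3b, the scarcest, reached 10 counts in 11 libraries.

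All 12 libraries came from mice of the strain ArcCreERT2 crossed to R26R-STOP-floxed eYFP, with the genotype given as +/+. In such mice the Arc gene, which is switched on by neuronal activity, drives a Cre recombinase that works only with tamoxifen, and Cre switches on a yellow fluorescent protein that stays in the cell. Per the labels' protocols, every mouse was kept dark for 24 h and received 4-hydroxytamoxifen 1 h before contextual fear conditioning. Brains were collected 1.5 to 2 h after conditioning or on day 5 (after 48 h more in the dark), and some mice met the tone and context again after those 5 days. Nuclei were fixed with 1% paraformaldehyde, stained for NeuN (a neuronal nuclear protein), Arc and GFP, and sorted, with 10 to 12 mice pooled for 10000 nuclei per condition. The treatment field is the same for all 12 libraries and names day 0 without recall, so the groups rest on the titles Early, Late, Reactivated and Basal alone. No label says which time point or sorting gate belongs to which title, and the age of the mice is not among the labels used here. Early, Late and Reactivated are therefore set against Basal below as groups of libraries of those titles.

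The NMDA receptor is a glutamate-gated cation channel built as a tetramer of subunits. Every receptor contains GluN1, encoded by Grin1, which binds the co-agonist glycine or D-serine. The GluN2 subunits, encoded by Grin2a to Grin2d, bind glutamate and set how fast the channel closes, how strongly magnesium blocks it and which scaffolds and kinases it meets. The GluN3 subunits, encoded by Grin3a and Grin3b, bind glycine and make channels that pass less calcium. In the hippocampus, calcium entry through receptors with GluN2A and GluN2B starts long-term potentiation, and these receptors are needed for contextual fear memory. GluN2C is known from cerebellar granule cells and astrocytes, and GluN2D from interneurons and from early development.

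Total counts ran from 4838166 to 11120255 per library. The share taken by Rn45s, the precursor of ribosomal RNA, was 6.23 to 12.9% in Early, 27.9 to 36.5% in Late, 18.8 to 27.7% in Reactivated and 4.72 to 12.2% in Basal. Arc, used for the sort, was 2.97-fold higher in Early, 4.05-fold higher in Late and 4.52-fold higher in Reactivated than in Basal. The neuronal markers Rbfox3 and Snap25 had at least 1596 normalized counts in every library, where a normalized count is the count divided by the library's TMM-scaled size relative to the 12 libraries. Counts of called cell type markers are given for Late against Basal, where 49.1% of all genes were called, 25.4% higher and 23.6% lower. Of 10 dentate granule cell markers 9 fell and 0 rose, while 8 of 8 CA1 markers and 6 of 8 CA3 and CA2 markers rose and 0 of either list fell. Among 11 GABAergic interneuron markers 5 fell, and 3 of 8 astrocyte markers fell, with 0 rising in either list. The neuron list had 2 of 5 higher, the oligodendrocyte list 3 higher and 5 lower of 8, the oligodendrocyte precursor list 1 lower of 4, the microglia list 3 higher and 3 lower of 6 tested, and the blood vessel list 3 lower of 5 tested. Markers listed at 0 in some library were Tdo2 (granule cells), C1qa and Tmem119 (microglia) and Cldn5 and Vtn (vessels). The part of these cell types, of Rn45s and of the sort in the differences below was not tested. In bulk nuclei such as these, fewer cells of a type and less RNA per nucleus cannot be told apart.

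Levels of the 7 genes were first compared with one another per kilobase of exon, as CPM (the count relative to the TMM-scaled size of its library) divided by the exon length of the GENCODE vM21 annotation. Grin1 was first in every group, at 45.0 ± 4.39 CPM per kilobase of exon in Early, 54.3 ± 2.32 in Late, 48.6 ± 2.93 in Reactivated and 44.1 ± 1.82 in Basal (SD, n = 3 each). Grin2b came next at 28.2 ± 2.33 CPM per kilobase in Early, 18.9 ± 1.22 in Late, 21.8 ± 1.69 in Reactivated and 25.2 ± 1.89 in Basal. Grin2a followed at 20.3 ± 1.38 CPM per kilobase in Early, 15.9 ± 1.03 in Late, 15.0 ± 1.27 in Reactivated and 22.6 ± 3.02 in Basal. In Basal, the level of Grin2b exceeded that of Grin2a by less than the sum of their SDs. Both genes were counted in the same libraries, and SDs over libraries do not use that pairing, here or for the pairs below. The other 4 subunit genes lay between 0.448 and 4.89 CPM per kilobase of exon as group means, with Grin3b the lowest in every group. In Early, Late and Basal the order of the rest was Grin2d, Grin3a and Grin2c, with Grin2d at 2.22 ± 0.0819 and Grin3a at 1.88 ± 0.590 CPM per kilobase in Early not separated by their SDs. Nor were Grin2d (4.28 ± 1.71) and Grin3a (2.55 ± 0.278) in Basal. Grin2c and Grin3b were within their SDs in Late (0.623 ± 0.213 and 0.448 ± 0.0974 CPM per kilobase of exon), Reactivated and Basal (1.36 ± 0.362 and 1.02 ± 0.228). In Reactivated, Grin2c (3.47 ± 3.57), Grin2d (3.05 ± 0.436) and Grin3a (2.84 ± 0.647) were within their SDs. Divided by coding length instead, Grin2b (158 ± 13.0 CPM per kilobase) and Grin1 (148 ± 14.5) changed places in Early and were within their SDs. In Late, Reactivated and Basal the order of Grin1, Grin2b and Grin2a was the same on both scales, with Grin1 (145 ± 6.01) and Grin2b (141 ± 10.6) within their SDs per kilobase of coding length in Basal. The lower genes also changed places on that scale, where Grin3a stood above Grin2d in Early (6.76 ± 2.13 and 3.72 ± 0.137 CPM per kilobase of coding length) and in Basal (9.20 ± 1.00 and 7.17 ± 2.86, within their SDs). In Reactivated the coding-length order was Grin3a (10.2 ± 2.33), Grin2d (5.12 ± 0.732) and Grin2c (4.70 ± 4.84), the last pair within their SDs. The lengths come from a later mouse build than the mm9 build of the counts.

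Tested for a difference anywhere among the 4 groups, 4 of the 7 genes passed (edgeR quasi-likelihood test, Benjamini-Hochberg over all genes). Of all 15668 genes, 58.6% passed the same test, so the share of subunit genes was close to that of genes at large. The adjusted p was 0.00422 for Grin2a, 0.00590 for Grin2b, 0.00661 for Grin2c and 0.00313 for Grin2d. It was 0.129 for Grin1, 0.110 for Grin3a and 0.0893 for Grin3b.

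**Figure D1:**
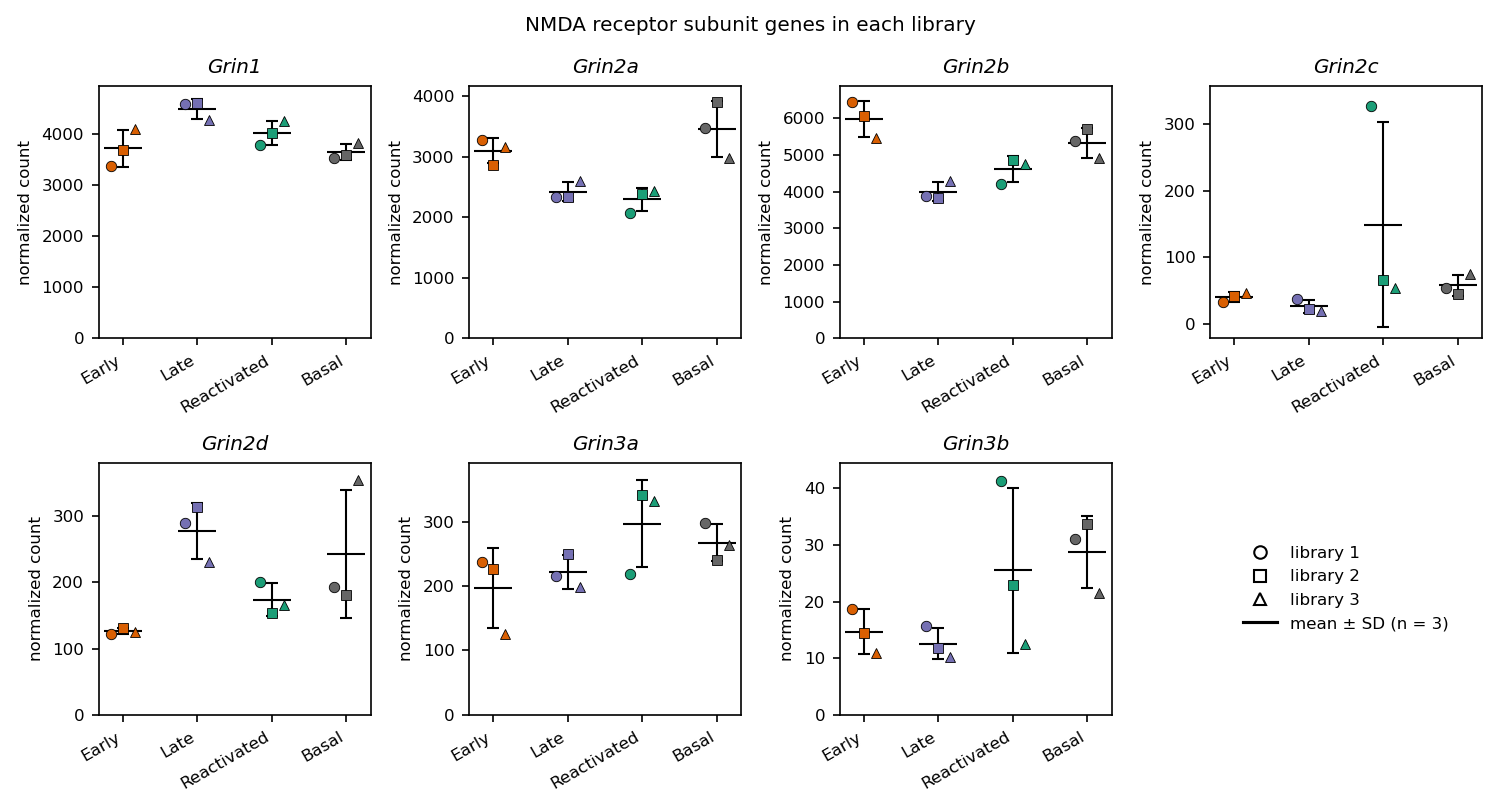
Normalized counts of the 7 NMDA receptor subunit genes (y axis, linear, 1 panel per gene) in the 3 libraries of Early, Late, Reactivated and Basal (x axis). Symbols are libraries, and lines are the mean ± SD (n = 3). Grin2a and Grin2b are lower in Late than in Basal in every library, and 1 Reactivated library stands far above the rest for Grin2c.

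The obligatory subunit gene Grin1 passed the test in none of the 6 comparisons with edgeR, where 2 unadjusted p-values were under 0.05. It had 3377, 3681 and 4099 normalized counts in Early, 4595, 4610 and 4270 in Late, 3778, 4024 and 4263 in Reactivated, and 3526, 3596 and 3815 in Basal. The Late libraries were above every library of Early, Reactivated and Basal, and the other 3 groups overlapped one another. Grin1 was 1.23-fold higher in Late than in Basal, at a log2 fold change of 0.30 ± 0.12 (SE) and an adjusted p of 0.0512 (edgeR), just short of the threshold of 0.05. Median-of-ratios scaling gave an adjusted p of 0.0493 and DESeq2 0.0170 for the same difference. Scaling by library totals alone gave the opposite sign for Grin1, -0.55 with an adjusted p of 0.00197 (edgeR), a setting in which the median gene also moved by -0.87. Scaling by totals without Rn45s gave -0.07 for Grin1 and -0.40 for the median gene. Relative to the median gene the Grin1 difference was 0.32 and 0.33 under these settings. Late against Early gave Grin1 a log2 fold change of 0.27 ± 0.12 (adjusted p = 0.0826, edgeR), and scaling by totals alone turned this sign too (-0.48, adjusted p = 0.00560). Left out in turn, Basal 3, Early 3 or Reactivated 1 brought the adjusted p of Grin1 under 0.05 in Late against Basal (adjusted p = 0.0463, 0.0238 and 0.0478, edgeR), and without Early 3 it passed in Late against Early (adjusted p = 0.0275).

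The antisense gene Grin1os shares 1307 exon bases with Grin1 (13.5% of its exon length in GENCODE vM21). The strand setting of the counting is not given in the sources used here, so reads of this stretch cannot be assigned to either gene. Grin1os averaged 407 ± 98.5 normalized counts in Early, 384 ± 35.6 in Late, 387 ± 51.3 in Reactivated and 411 ± 112 in Basal (SD, n = 3 each), far fewer than Grin1. It passed in 0 of the 6 comparisons between groups with edgeR, at an unadjusted p of at least 0.620 in each.

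Promoter sequences were at hand for Grin1, Grin2c, Grin2d and Grin3b, 4 of the 7 genes, from RefSeq on GRCm38.p6, with 250 bases before the start of the gene and 50 after it. Those of Grin1, Grin2d and Grin2c are printed because Grin1 is the common subunit and because Grin2d and Grin2c had the largest increases between groups. They run 5′ to 3′ on the strand of the gene, here the minus strand for each, and capitals mark matches to 5 motifs searched on both strands. The motifs were GCGNGGGCG (bound by EGR factors), GGGGCGGGG (SP factors), TGANTCA (AP-1), TGACGTCA (the cyclic AMP response element bound by CREB) and CACGTG (an E-box). EGR, AP-1 and CREB are factors that neuronal activity engages.
Grin1, chr2:25319138-25319437: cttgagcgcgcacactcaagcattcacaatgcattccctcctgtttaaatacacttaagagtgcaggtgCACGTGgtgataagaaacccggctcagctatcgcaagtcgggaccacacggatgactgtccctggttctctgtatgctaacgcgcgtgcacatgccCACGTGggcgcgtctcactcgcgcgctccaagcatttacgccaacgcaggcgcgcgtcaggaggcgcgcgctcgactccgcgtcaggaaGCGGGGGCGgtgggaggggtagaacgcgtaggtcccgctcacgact
Grin2d, chr7:45866632-45866931: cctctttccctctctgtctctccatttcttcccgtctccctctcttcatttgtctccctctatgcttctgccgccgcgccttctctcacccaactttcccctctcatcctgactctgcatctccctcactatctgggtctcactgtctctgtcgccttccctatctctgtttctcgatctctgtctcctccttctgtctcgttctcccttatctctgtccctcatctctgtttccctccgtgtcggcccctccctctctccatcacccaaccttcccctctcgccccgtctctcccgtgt
Grin2c, chr11:115267194-115267493: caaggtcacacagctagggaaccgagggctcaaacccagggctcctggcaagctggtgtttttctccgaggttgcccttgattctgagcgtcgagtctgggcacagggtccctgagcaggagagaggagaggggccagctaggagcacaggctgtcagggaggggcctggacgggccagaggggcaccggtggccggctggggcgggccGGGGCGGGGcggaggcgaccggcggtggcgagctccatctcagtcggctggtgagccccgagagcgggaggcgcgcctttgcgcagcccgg

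The Grin1 window had 1 EGR match, starting at base 5 counted from the gene start, and 2 CACGTG matches, none of which overlapped. Among 32851 promoters of this length, 5.55% held the EGR letters and 7.15% held CACGTG. The Grin2c window had 1 match to GGGGCGGGG, which 11.4% of promoters held. The Grin2d window held none of the 5 motifs, and that of Grin3b had 1 AP-1 match, which 7.81% of promoters held. TGACGTCA was in none of the 4 windows and in 1.79% of all promoters. GC content was 60.7% for Grin1, 56.0% for Grin2d, 70.0% for Grin2c and 48.3% for Grin3b, against a median of 52.7% over all promoters. These matches describe letters only and carry no measurement of binding.

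Grin2a, which encodes the subunit of the faster-closing adult receptor, was lower in Late and in Reactivated than in Basal. It had 3271, 2865 and 3165 normalized counts in Early, 2341, 2329 and 2606 in Late, 2075, 2381 and 2435 in Reactivated, and 3477, 3905 and 2981 in Basal. Every Late and every Reactivated library was below every Early and every Basal library, while Early and Basal overlapped. Grin2a fell 1.42-fold in Late against Basal (log2 fold change -0.51 ± 0.13, adjusted p = 0.00602, edgeR) and 1.50-fold in Reactivated against Basal (-0.59 ± 0.13, adjusted p = 0.00382). Both calls were kept when each of the 12 libraries was left out in turn.

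Against Early, the calls of Grin2a were lost in several of the fits with 1 library left out. Grin2a fell in Late against Early (log2 fold change -0.35 ± 0.13, adjusted p = 0.0457, edgeR) and in Reactivated against Early (-0.43 ± 0.13, adjusted p = 0.0294). The first call was lost without Early 1, 2 or 3, Late 1, 2 or 3, or Reactivated 2 or 3, with fold changes between -0.41 and -0.31 and adjusted p up to 0.138. The other was lost without Early 1 or 2 or Reactivated 1 or 2, with adjusted p of 0.105, 0.0552, 0.0903 and 0.0527. Between Reactivated and Late the log2 fold change was -0.08 ± 0.13 and did not pass. Its sign turned under scaling by totals alone, at 0.28.

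Grin2b, whose subunit closes slowly and binds CaMKII, was highest in Early. It had 6430, 6065 and 5454 normalized counts in Early, 3886, 3815 and 4296 in Late, 4199, 4863 and 4765 in Reactivated, and 5376, 5702 and 4906 in Basal. Late and Reactivated lay wholly below Early and wholly below Basal, while Early overlapped Basal and Reactivated overlapped Late. Grin2b fell 1.50-fold in Late against Early (log2 fold change -0.58 ± 0.13, adjusted p = 0.00210, edgeR), a call kept in each of 12 fits that left out 1 library. It fell 1.33-fold in Late against Basal (-0.41 ± 0.13, adjusted p = 0.0138), a call lost without Basal 2, Late 1 or Late 2 (adjusted p = 0.0579, 0.0528 and 0.0580).

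In Reactivated, the mean of Grin2b lay between those of Late and Basal. Grin2b fell in Reactivated against Early (log2 fold change -0.38 ± 0.13, adjusted p = 0.0397, edgeR) and did not pass in Reactivated against Basal (-0.21 ± 0.13, adjusted p = 0.200). The call against Early was lost in 7 of the 12 fits with 1 library left out, those without Early 1 or 2, Late 1 or 2, or Reactivated 1, 2 or 3, where fold changes were -0.42 to -0.31 and adjusted p reached 0.146. Reactivated against Late gave 0.20 ± 0.13 (adjusted p = 0.267), so a difference between them was not detectable with 3 libraries each.

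The granule cell and CA1 markers named above differed between the same groups. The summed normalized count of 10 granule cell markers was 2534 to 2671 in Early, 1870 to 2022 in Late, 1649 to 3277 in Reactivated and 8520 to 11879 in Basal. That of 8 CA1 markers was 2283 to 2453 in Early, 3346 to 4005 in Late, 3120 to 3803 in Reactivated and 852 to 1268 in Basal. The part of the make-up of the sorted nuclei in the Grin2a and Grin2b differences was not tested.

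Grin2d, a gene of interneurons in the adult hippocampus, was higher in Late than in Early. It had 122, 131 and 124 normalized counts in Early, 289, 313 and 231 in Late, 201, 153 and 166 in Reactivated, and 193, 181 and 354 in Basal. Early was the lowest group without overlap, Late was above Early and Reactivated, and Basal 3 stood far above Basal 1 and Basal 2. Grin2d rose in Late against Early (log2 fold change 1.14 ± 0.23, adjusted p = 0.00146, edgeR), a call kept with each of the 12 libraries left out. Under totals alone that difference was 0.37 with an adjusted p of 0.139, while the median gene moved by -0.78.

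Grin2d fell 1.94-fold in Early against Basal (log2 fold change -0.96 ± 0.23, adjusted p = 0.0230, edgeR). Without Basal 3 the fold change was -0.57 with an adjusted p of 0.0812, and without Early 1, 2 or 3 the adjusted p was 0.0871, 0.0697 or 0.0677, so this call rests on each of those 4 libraries. Without Basal 3 and Early 3 together it was -0.55 (adjusted p = 0.146). In Reactivated against Late, Grin2d fell (log2 fold change -0.68 ± 0.23, adjusted p = 0.0464), and the call was lost without Basal 1, Early 1 or 2, Late 1 or 2, or Reactivated 2 or 3, where the fold change was -0.68 to -0.59 and adjusted p reached 0.162. Late against Basal did not pass (0.18 ± 0.23), yet it rose in the fit without Basal 3 (0.57, adjusted p = 0.0182), and scaling by totals alone turned its sign to -0.65 (adjusted p = 0.0124, edgeR). Reactivated against Basal gave -0.50 ± 0.23 (adjusted p = 0.0967), with an adjusted p of 0.0475 without Basal 2. The gene model Gm45441 overlaps 643 exon bases of Grin2d on the other strand, 9.66% of its exon length.

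GABAergic interneuron markers moved in part differently from Grin2d. The summed normalized count of the 11 markers was 2677 to 3884 in Early, 2587 to 2840 in Late, 2991 to 3088 in Reactivated and 4649 to 5732 in Basal. Basal 3, the highest library for Grin2d, also had the highest marker sum. Late had low marker sums beside high Grin2d counts, but members of the list differed. The largest, Adarb2, averaged 853 normalized counts in Early, 687 in Late, 666 in Reactivated and 1588 in Basal. Slc32a1 averaged 120 ± 35.5 in Early, 217 ± 23.7 in Late, 169 ± 27.6 in Reactivated and 155 ± 34.4 in Basal (SD). Its mean, like that of Grin2d, was lowest in Early and highest in Late. Means of Sst and Lhx6 were also higher in Late than in Early, and those of the other members were lower. In Late against Early, 1 of the 11 markers rose and 2 fell, in Early against Basal 1 rose and 4 fell, and in Reactivated against Late 1 rose and 0 fell. Of all genes, 22% rose and 20.4% fell in Late against Early. The shares were 3.36% and 2.66% in Early against Basal, and 10.3% and 12.3% in Reactivated against Late. None of the 11 was at 0 in any library.

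Grin2c, scarce in these nuclei, was set apart by a single library. It had 33.4, 42.1 and 47.6 normalized counts in Early, 37.2, 22.5 and 20.5 in Late, 326, 66.0 and 55.1 in Reactivated, and 54.4, 44.9 and 75.3 in Basal. Reactivated 1 was several times above every other library, and the other Reactivated libraries were above every Early and Late library but among the Basal ones. Grin2c rose in Reactivated against Late at a log2 fold change of 2.45 ± 0.57 (adjusted p = 0.00670, edgeR). That call was kept with each library left out, but the fold change was 1.18 without Reactivated 1. In Reactivated against Early it rose by 1.82 ± 0.54 on the log2 scale (adjusted p = 0.0236), and the call was lost without Reactivated 1 (0.55, adjusted p = 0.204), Early 1 (1.70, adjusted p = 0.0893) or Early 2 (1.84, adjusted p = 0.0786).

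Against Basal, Grin2c passed in none of the 3 comparisons as tested. The log2 fold change was -0.51 ± 0.55 in Early, -1.14 ± 0.58 in Late (adjusted p = 0.118, edgeR) and 1.31 ± 0.53 in Reactivated (adjusted p = 0.0612). Leaving out Reactivated 1 brought the Late difference past the threshold (-1.14, adjusted p = 0.00574) and took the Reactivated difference to 0.04. Without Reactivated 2 or Reactivated 3 the Reactivated difference passed (1.67, adjusted p = 0.0235, and 1.71, adjusted p = 0.0143), as it did with DESeq2 (1.34, adjusted p = 0.0301).

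Astrocyte markers were also high in the library with the high Grin2c count. Their summed normalized count, over 8 markers, was 5176, 5577 and 3490 in Early, 2721, 2411 and 2790 in Late, 8362, 3759 and 4481 in Reactivated, and 7165, 6627 and 4572 in Basal. Reactivated 1 had the highest sum. The largest member of the list was Slc1a2, at 3961 ± 1640 normalized counts in Reactivated and 3211 ± 1027 in Basal. Slc4a4 had 503 ± 254 in Reactivated and 2208 ± 275 in Basal. Gfap had 359, 174 and 229 in Reactivated and at most 123 in Basal. The ranges of Slc1a2, Aqp4, Slc1a3, Aldoc and Gja1 overlapped between Reactivated and Basal, with Aqp4 at 55.4 to 161 and 50.9 to 99.7. In Reactivated against Basal 1 of the 8 markers rose and 1 fell, beside 20.6% and 18.8% of all genes. Of the 8 markers, 6 rose and 0 fell in Reactivated against Late, 1 rose in Reactivated against Early, and none was at 0 in any library. Among all genes, 10.3% rose and 12.3% fell in Reactivated against Late, and 13.5% rose and 12.7% fell in Reactivated against Early. Slc7a10, an astrocytic transporter of D-serine and glycine, had 167, 43.1 and 90.6 normalized counts in Reactivated. Prox1, a marker of granule cells, was also highest of the Reactivated libraries in Reactivated 1, at 457 normalized counts against 180 and 119 in Reactivated 2 and 3. Other marker sums were likewise highest of the Reactivated libraries in Reactivated 1. They were 7655, 3443 and 2917 normalized counts for 8 oligodendrocyte markers, 321, 143 and 133 for 4 oligodendrocyte precursor markers, 2098, 1142 and 848 for 8 microglia markers, and 226, 76.6 and 109 for 6 blood vessel markers. The part of these cell types in the Grin2c difference was not tested.

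**Figure D2:**
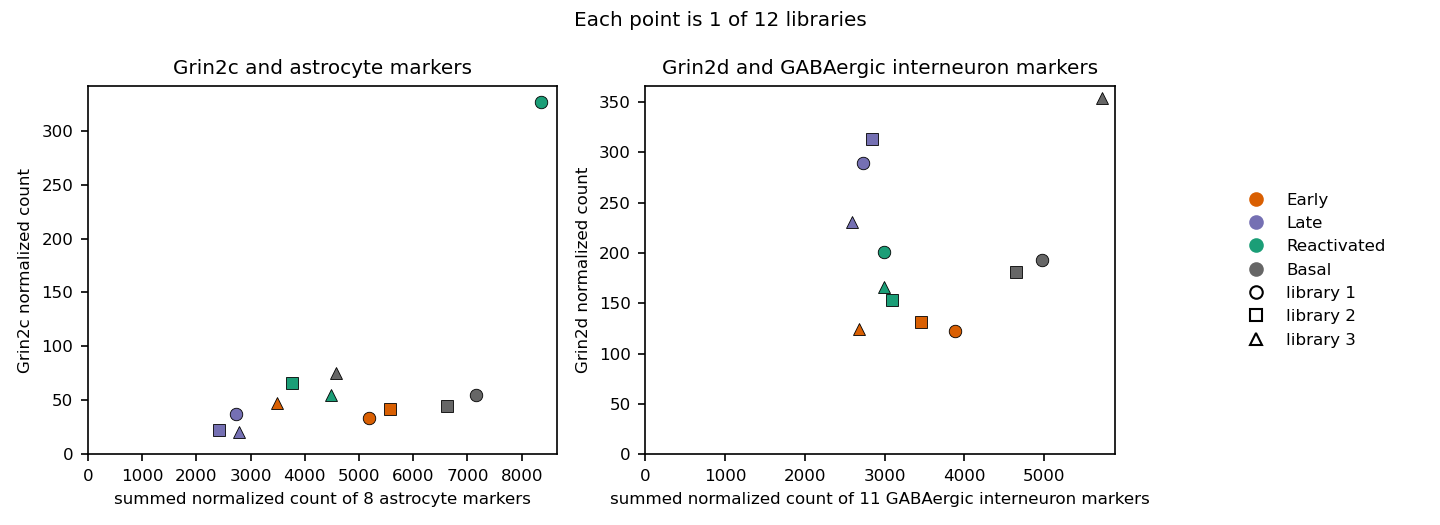
Normalized counts of Grin2c against the summed normalized count of 8 astrocyte markers (left) and of Grin2d against that of 11 GABAergic interneuron markers (right), with 1 point per library, colours for groups and symbols for library numbers. Reactivated 1 is highest on both axes at the left (326 and 8362), and Basal 3 is highest on both axes at the right (354 and 5732).

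The GluN3 genes gave little that passed the test. Grin3a had 237, 227 and 125 normalized counts in Early, 216, 250 and 198 in Late, 219, 341 and 331 in Reactivated, and 298, 240 and 263 in Basal. Early lay just below Basal without overlap, and every other pair of groups overlapped. Grin3a passed in 0 of 6 comparisons with edgeR, where 1 unadjusted p was under 0.05. Its largest log2 fold change was 0.60 ± 0.23 in Reactivated against Early (adjusted p = 0.0632, edgeR), which passed without Reactivated 1 (0.78, adjusted p = 0.0270). In Late against Early its 0.17 ± 0.23 turned to -0.07 without Early 3 and to -0.62 with scaling by totals alone.

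Grin3b had 18.8, 14.5 and 10.9 normalized counts in Early, 15.6, 11.9 and 10.3 in Late, 41.3, 22.9 and 12.4 in Reactivated, and 31.1, 33.7 and 21.5 in Basal. Early and Late lay below every Basal library, and the Reactivated libraries overlapped each of the other groups. Grin3b fell 2.26-fold in Late against Basal (log2 fold change -1.18 ± 0.47, adjusted p = 0.0481, edgeR). The call was lost without Basal 1 or 2, Early 1, 2 or 3, or Late 1, 2 or 3, with fold changes of -1.36 to -1.04 and adjusted p up to 0.140, and without the filter on low counts (adjusted p = 0.0625). Early against Basal gave a similar -0.96 ± 0.45 but did not pass (adjusted p = 0.291). In Reactivated against Basal the value was -0.19 ± 0.44, and 0.15 without Reactivated 3. Raw counts of Grin3b were 9 to 30 per library, and 1059 of its exon bases, 32.1%, overlap Tmem259 on the other strand, so its reads are of uncertain origin.

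**Figure D3:**
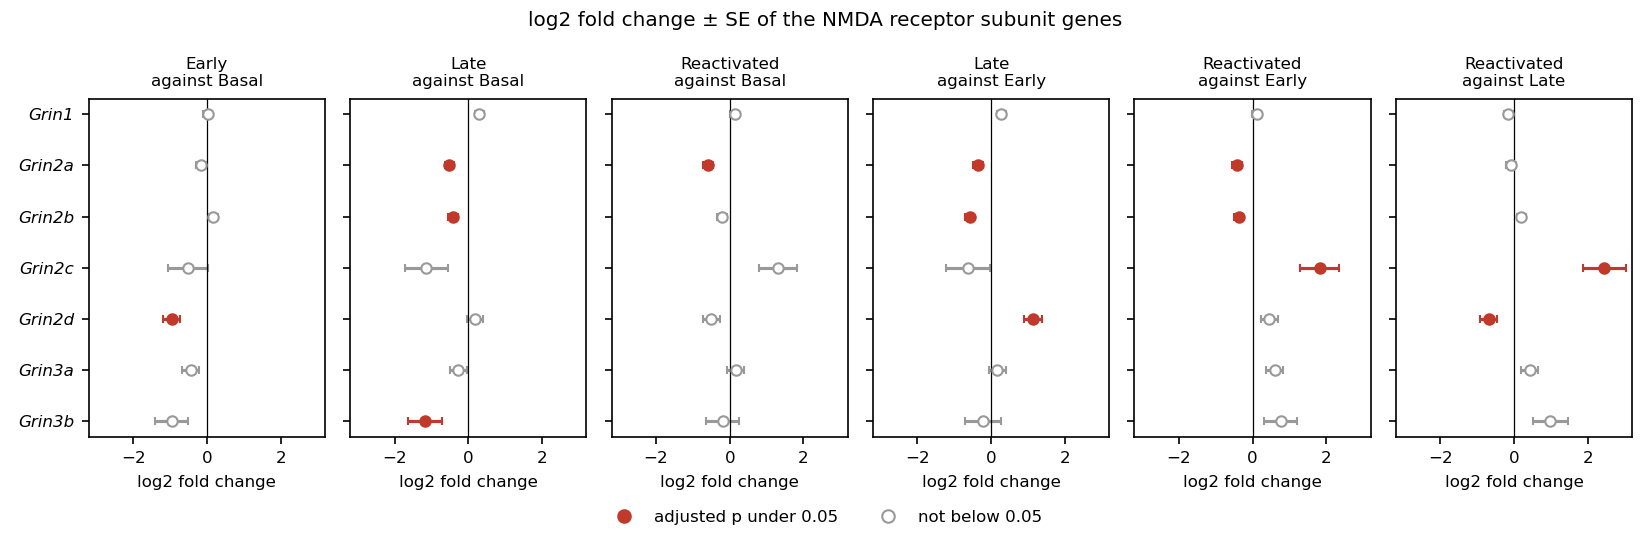
Log2 fold change ± SE (x axis) of each subunit gene (y axis) in the 6 comparisons between groups, 1 panel each, filled red where the edgeR adjusted p was under 0.05. Grin2a and Grin2b lie left of 0 in Late against Basal (-0.51 and -0.41), and Grin2c lies farthest right in Reactivated against Late (2.45).

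Counted by comparison, between 1 and 3 of the 7 subunit genes were called. In Early against Basal 0 of 7 rose and 1 fell (Grin2d), where 6.03% of all genes were called, 3.36% higher and 2.66% lower. Late against Basal had 0 higher and 3 lower (Grin2a, Grin2b and Grin3b), beside 49.1% called among all genes, 25.4% higher and 23.6% lower. Reactivated against Basal had 1 lower (Grin2a) and 0 higher, beside 39.4% called, 20.6% higher and 18.8% lower. The subunit genes that passed against Basal were all lower. These 3 comparisons share the Basal libraries. The split of all called genes moved with the scaling. Late against Basal had 3981 higher and 3705 lower as fitted, 1401 and 9062 with library totals alone, and 2532 and 5944 with totals without Rn45s. Early against Basal had 527 and 417 as fitted, 341 and 444 with totals alone, and 435 and 532 without Rn45s. For Reactivated against Basal the split was 3228 and 2946, 1240 and 5833, and 2145 and 4302 in the same order. It was 3442 and 3189, 1208 and 8601, and 2275 and 5035 for Late against Early. Reactivated against Early gave 2121 and 1988, 719 and 4284, and 1497 and 2735. Reactivated against Late gave 1615 and 1926, 3881 and 1091, and 2256 and 1541. With 7 genes the counts are too small to set the family apart from other genes.

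Between the other titles, Late against Early had 1 higher (Grin2d) and 2 lower (Grin2a and Grin2b), where 42.3% of all genes were called, 22% higher and 20.4% lower. Reactivated against Early had 1 higher (Grin2c) and 2 lower (Grin2a and Grin2b), with 26.2% of genes called, 13.5% higher and 12.7% lower. Reactivated against Late had 1 higher (Grin2c) and 1 lower (Grin2d), with 22.6% of genes called, 10.3% higher and 12.3% lower. The median log2 fold change of the 7 genes was -0.44 in Early, -0.41 in Late and -0.19 in Reactivated against Basal, where the median of all genes was 0.01, -0.03 and 0.02. It was -0.22 in Late against Early, 0.45 in Reactivated against Early and 0.20 in Reactivated against Late, where all genes gave -0.03, 0.03 and 0.03.

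Genes whose libraries did not overlap between groups were also counted. In Early against Basal 3 of the 7 did not overlap, where 23.4% of all genes did not. In Late against Basal it was 5 of 7 with 62.5% of all genes, and in Reactivated against Basal 2 of 7 with 45.8%. In Late against Early 4 of 7 did not overlap with 59.9% of all genes, in Reactivated against Early 4 of 7 with 39.1%, and in Reactivated against Late 3 of 7 with 39.7%.

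Ratios of subunit counts within a library do not change with the scaling between libraries, and 2 were compared. The ratio of Grin2a plus Grin2b counts to Grin1 counts was 2.87, 2.43 and 2.10 in Early, 1.36, 1.33 and 1.62 in Late, 1.66, 1.80 and 1.69 in Reactivated, and 2.51, 2.67 and 2.07 in Basal. Every Late and Reactivated library was below every Early and Basal library, and Late was below Reactivated. Means were 2.47 ± 0.387 in Early, 1.43 ± 0.158 in Late, 1.72 ± 0.0738 in Reactivated and 2.42 ± 0.313 in Basal (SD, n = 3 each). The 4 groups differed by an exact permutation test of the log2 ratios over all 369600 assignments of the 12 libraries (p = 0.00175, adjusted p = 0.00299 over the 2 ratios).

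The ratio of Grin2a to Grin2b counts was 0.509, 0.472 and 0.580 in Early, 0.602, 0.610 and 0.607 in Late, 0.494, 0.490 and 0.511 in Reactivated, and 0.647, 0.685 and 0.608 in Basal. Early and Reactivated overlapped, Late lay wholly above both, and the lowest Basal library lay among the Late ones. The groups differed by the same exact permutation test (p = 0.00299, adjusted p = 0.00299). For pairs of groups the smallest exact two-sided permutation p that 3 against 3 libraries allow is 0.1 (0.133 adjusted over the 12 pairs), so no pair could pass. On the log2 scale the ratio of Grin2a to Grin2b differed by -0.28 in Reactivated against Late, and that of Grin2a plus Grin2b to Grin1 by 0.26. Since the genes differ in length, the ratios compare libraries and do not give the number of subunits.

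**Figure D4:**
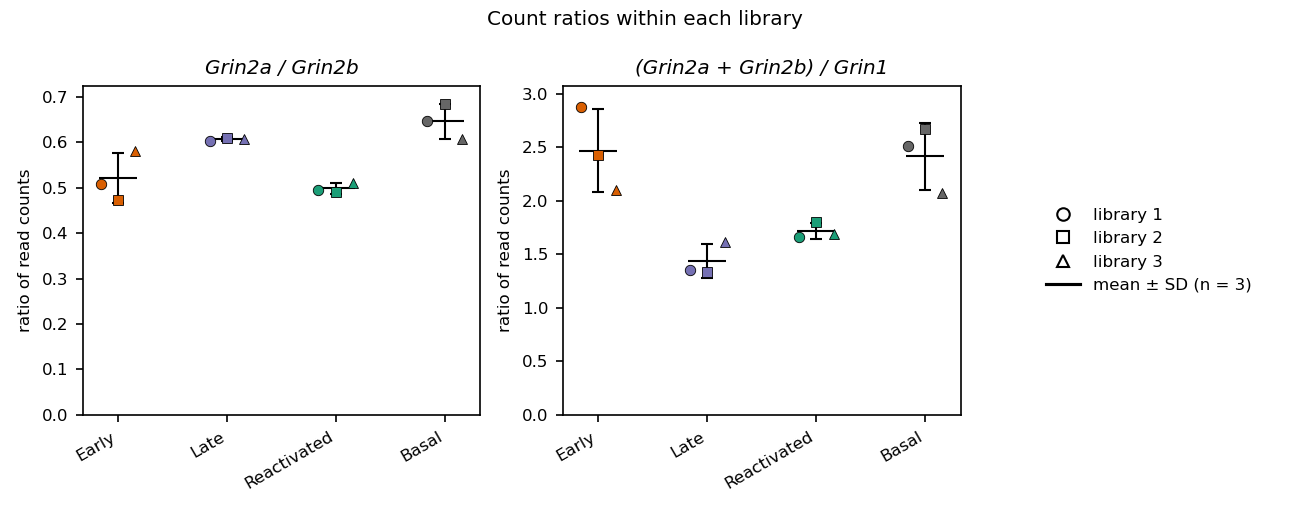
Ratio of Grin2a to Grin2b counts (left) and of Grin2a plus Grin2b to Grin1 counts (right) in each library (y axis, starting at 0) of the 4 groups (x axis), with the mean ± SD (n = 3). At the right, Late (1.33 to 1.62) and Reactivated (1.66 to 1.80) lie below Early (2.10 to 2.87) and Basal (2.07 to 2.67).

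The other genes of the receptor's surroundings were read from 5 lists, which were chosen with earlier results of these data known. Counts called in them stand beside the shares called among all genes. Those were 6.03%, 49.1% and 39.4% in Early, Late and Reactivated against Basal. They were 42.3% in Late against Early, 26.2% in Reactivated against Early and 22.6% in Reactivated against Late. In the supply of the co-agonists glycine and D-serine, 10 of 12 genes were tested. None of them passed in Early against Basal, 1 rose and 4 fell in Late against Basal, and 1 rose and 1 fell in Reactivated against Basal. Srr, the racemase that makes D-serine from L-serine, fell to 72.3 ± 8.35 normalized counts in Late and 87.2 ± 7.08 in Reactivated, against 179 ± 44.6 in Basal (log2 fold changes -1.29 and -1.02, edgeR adjusted p = 7.97e-04 and 0.00558). Slc1a4, a serine transporter, rose by 0.67 in Late and 0.53 in Reactivated on the log2 scale. Psat1, an enzyme of serine synthesis, fell by 1.24 on the log2 scale in Late against Basal and rose by 1.32 in Reactivated against Late.

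Also in Reactivated against Late, Slc7a10 rose by 2.15 ± 0.47 on the log2 scale (adjusted p = 0.00426, edgeR). Shmt1, which interconverts serine and glycine, fell (-1.29, adjusted p = 0.0104) in that comparison. Srr also fell in Late and Reactivated against Early (-1.12 and -0.85). The list had 2 genes higher and 1 lower of 10 in Reactivated against Late, 0 higher and 1 lower in Late against Early, and 1 and 1 in Reactivated against Early.

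Of 16 scaffolds and auxiliary proteins, 2 rose and 0 fell in Early against Basal, 8 rose and 2 fell in Late against Basal, and 7 rose and 1 fell in Reactivated against Basal. The median log2 fold change of the list was 0.14, 0.41 and 0.40 in these comparisons under TMM scaling. List medians were not taken under other scalings. In Late against Basal the median of all genes moved by -0.87 with totals alone and by -0.40 with totals without Rn45s. Neto1, an auxiliary subunit of the receptor complex, had 1063 ± 93.7 normalized counts in Early and 1456 ± 48.4 in Late, against 547 ± 95.5 in Basal, and rose in both (log2 fold changes 0.96 and 1.41, adjusted p = 0.00190 and 8.19e-06, edgeR). Ephb2, a receptor tyrosine kinase that clusters NMDA receptors, rose 6.78-fold in Late, at 3406 ± 700 normalized counts in Late against 502 ± 17.5 in Basal. In Reactivated it averaged 838 ± 229, a fall of 4.07-fold against Late. By library it had 4078, 3457 and 2682 normalized counts in Late and 1099, 668 and 746 in Reactivated. Summed markers of microglia and of oligodendrocytes were also higher in Late than in Basal, while those of astrocytes were lower. Of 6 microglia markers tested, 3 rose and 3 fell in Late against Basal, and of 8 oligodendrocyte markers 3 rose and 5 fell. Among all genes 25.4% rose and 23.6% fell there. Over 8 microglia markers the sum was 683 to 824 in Early, 9760, 7758 and 5690 in Late, 2098, 1142 and 848 in Reactivated, and 709 to 824 in Basal. Over 8 oligodendrocyte markers it was 1681 to 2142 in Early, 9974, 7905 and 4757 in Late, 7655, 3443 and 2917 in Reactivated, and 1937 to 2555 in Basal. The part of glia in the Ephb2 difference was not tested.

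Nefl, the light neurofilament subunit that binds GluN1, rose by 2.05 in Late and 2.41 in Reactivated against Basal on the log2 scale. Dlgap3 and Dlgap4, which tie PSD-95 to the deeper scaffold, rose in Reactivated against Basal (1.35 and 1.09). Dlg2, the scaffold PSD-93, fell in Late and Reactivated against Basal (-0.51 and -0.67) and in Reactivated against Early (-0.81). Nlgn1, an adhesion protein of excitatory synapses, rose in Early against Basal (0.66) and fell in Reactivated against Late (-0.49). The list had 7 higher and 1 lower in Late against Early, 4 and 1 in Reactivated against Early, and 0 and 2 in Reactivated against Late.

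Among 13 genes listed under trafficking, a list that includes the repressor gene Rest, 0 passed in Early against Basal, 8 rose and 3 fell in Late against Basal, and 6 rose and 2 fell in Reactivated against Basal. Rab5a, a small GTPase of early endosomes, had 312 ± 43.0 normalized counts in Late and 288 ± 34.3 in Reactivated, against 92.5 ± 4.32 in Basal (log2 fold changes 1.75 and 1.64). Kif5a, a motor of axonal and dendritic transport, rose by 1.43 and 1.17, and Apba1, an adaptor of the complex that carries GluN2B, rose by 0.80 in Reactivated. Rest is not a trafficking protein but a transcriptional repressor of neuronal genes, Grin2b among them in rodents. It had 546 ± 172 normalized counts in Late, against 51.3 ± 11.5 in Basal (log2 fold change 3.38, adjusted p = 1.93e-05, edgeR), and 106 ± 83.6 in Reactivated, a fall of 2.41 on the log2 scale against Late. By library Rest had 651, 641 and 347 normalized counts in Late and 202, 63.4 and 52.4 in Reactivated, and the microglia marker sums given beside Ephb2 had the same order over these libraries of Late and were also highest in Reactivated 1. The part of microglia in the Rest difference was not tested. Nsf, which frees receptors for membrane fusion, and Lin7c, of the same adaptor complex as Apba1, rose in Reactivated against Late (0.68 and 0.73). The list had 7 higher and 2 lower in Late against Early, 4 and 1 in Reactivated against Early, and 3 and 1 in Reactivated against Late.

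Kinases and phosphatases that act on the receptor had 4 of 18 higher and 0 lower in Early against Basal, 7 and 1 in Late against Basal, and 7 and 0 in Reactivated against Basal. Prkcb, a calcium-dependent protein kinase C, had 4254 ± 625 normalized counts in Early, 3002 ± 60.01 in Late and 3381 ± 324 in Reactivated, against 1875 ± 153 in Basal, and rose in all 3 comparisons (log2 fold changes 1.18, 0.68 and 0.85). Prkca, of the same family, rose likewise (1.05, 0.51 and 0.74). Prkaca, a catalytic subunit of protein kinase A, rose in Late against Basal (0.78). Ppp3r1, the regulatory subunit of calcineurin, fell in Late against Early (-1.13) and rose in Reactivated against Late (1.11), where Ppp3cb (0.63) and Cdk5r1 (0.39), the activator of Cdk5, also rose. The list had 3 higher and 6 lower in Late against Early, 0 and 0 in Reactivated against Early, and 4 and 1 in Reactivated against Late.

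Calcium effectors beyond the channel had 4 of 21 higher and 2 lower in Early against Basal, 8 and 5 in Late against Basal, and 9 and 6 in Reactivated against Basal. Camk4, a nuclear calmodulin kinase that acts on CREB, had 892 ± 118 normalized counts in Early, 1191 ± 162 in Late and 1192 ± 372 in Reactivated, against 430 ± 75.1 in Basal, and rose in all 3 (log2 fold changes 1.05, 1.47 and 1.47). Rasgrf2, a Ras activator driven by calmodulin, fell in all 3 (-0.95, -1.57 and -1.38). Tiam1, a Rac activator that binds the receptor, fell in all 3 as well (-1.42, -0.85 and -0.92). Camkk2, which activates Camk4, rose in Late (1.13) and Reactivated (0.49). Calm2 and Calm3, which encode calmodulin, rose in Reactivated against Late by 0.78 and 0.70 on the log2 scale. The list had 4 higher and 5 lower in Late against Early, 3 and 2 in Reactivated against Early, and 3 and 2 in Reactivated against Late. Against Basal, the shares called in these lists stand beside 6.03% of all genes in Early, 49.1% in Late and 39.4% in Reactivated. In Late against Early they stand beside 42.3%, in Reactivated against Early beside 26.2% and in Reactivated against Late beside 22.6%.

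**Figure D5:**
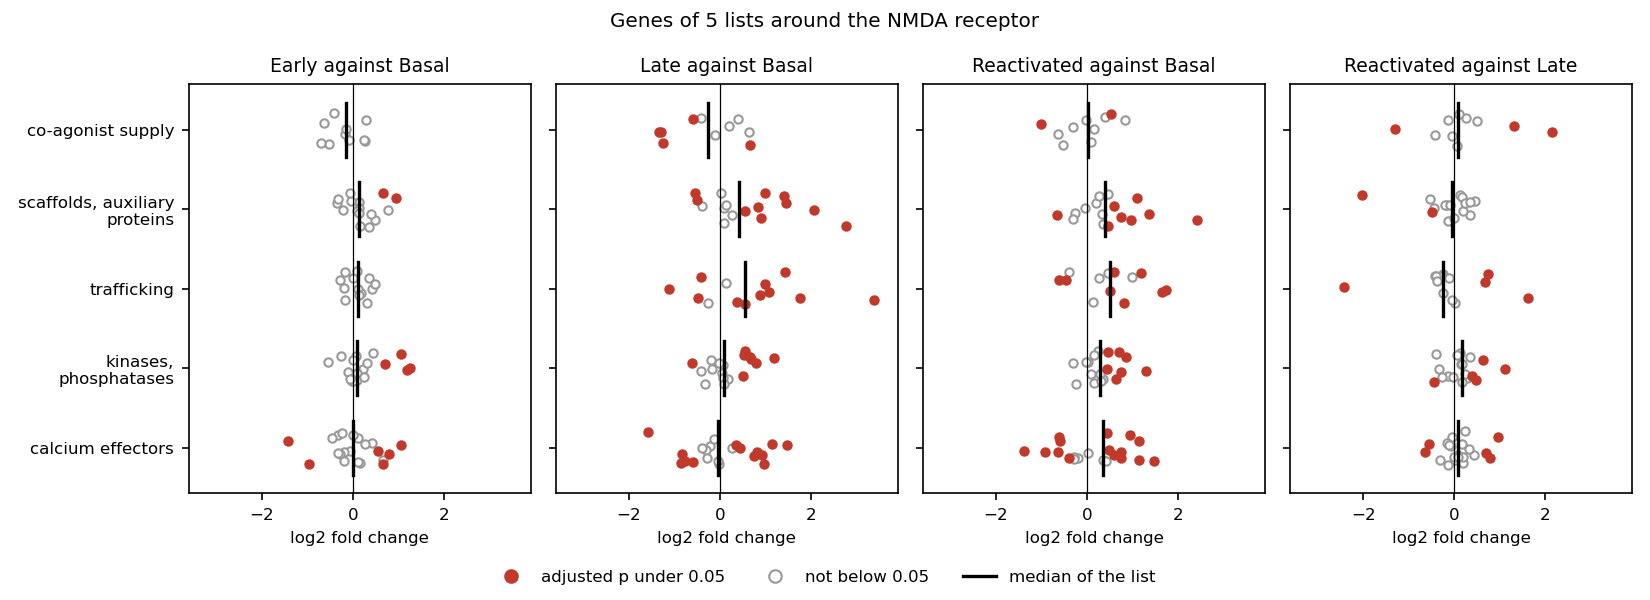
Log2 fold change (x axis) of each gene of 5 lists around the NMDA receptor (y axis) in 4 comparisons, filled red where the edgeR adjusted p was under 0.05, with a bar at the median of each list. Under TMM scaling, scaffolds and trafficking genes lie mostly right of 0 in Late against Basal (list medians 0.41 and 0.55).

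The 3 genes most like each subunit gene over the 12 libraries were taken by Pearson r of log2 CPM among 13849 genes, as a description. For Grin1 these were Dvl1, Acadvl and Rhot2 (r = 0.974, 0.968 and 0.967), and for Grin2a Ptprk, Pvt1 and Prpf18 (r = 0.971, 0.970 and 0.962). For Grin2b they were Ndrg3, Kifap3 and Mfsd11 (r = 0.981, 0.980 and 0.975), and for Grin2d Col9a1, Lrch1 and Ttc28 (r = 0.929, 0.918 and 0.918). Grin3a was most like Cln6, Sst and Cpt1a (r = 0.847, 0.825 and 0.823), of which Sst encodes somatostatin, the peptide of a class of interneurons. These values share the 12 libraries, their grouping and their scaling, and the largest of 13849 values is high by selection. Grin2c and Grin3b were too scarce for this comparison.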

How the data were processed

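RNA of sorted hippocampal nuclei was measured in 12 libraries, 3 for each of 4 titles, and all 12 entered every fit. The deposited table holds whole read counts per gene symbol and library, without scaling by the authors as judged from totals of 4838166 to 11120255, although its name calls them normalized. Per the labels' protocols, libraries were made with the SMARTer stranded total RNA kit with 15 PCR cycles, while the design text names SmartSeq2. Per the submitters' processing notes, Bowtie2 2.0, Cufflinks 2.2, DESeq2 and the build mm9 were used. How reads were counted, with which annotation and whether by strand is not given in the sources used here.

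Genes with at least 10 counts in at least 3 libraries were tested (15668). The test was edgeR 4.0.16 (R 4.3.3), quasi-likelihood, with TMM scaling and the 4 group means fitted together, two-sided, with Benjamini-Hochberg adjustment over all genes and a threshold of 0.05. Subunit genes were read from that fit. The same fit was run on simulated counts in which few genes changed, and only in Early. That simulation does not test the scaling under changes as broad as those in Late. Log2 CPM used a prior count of 2. Count ratios were compared by exact permutation tests. Each replicate is a pool of mice, and the edgeR p-values rest on the spread between pools within the 4 groups, estimated over all 12 libraries together. Depth limits Grin3b, with 9 to 30 counts per library.

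Named were the 7 subunit genes, up to 3 called genes of each list by p-value (2 in Late and Reactivated against Early), and the 3 genes most alike. Some genes that this rule named are left out of the text. Slc7a10 and Prox1 values by library, the list members added for their changes in a further comparison, and the printed promoters were chosen after values were seen. The members and all lists were chosen with earlier results of these data known. Nothing in the labels says that a replicate number marks a shared batch, so pairing was judged from the correlation of deviations from group means. All 3 same-numbered pairs of Early and Basal were above 0.1 (r = 0.33, 0.14 and 0.48), which met the criterion. The other 5 comparisons did not meet it, with 4 of 18 same-numbered pairs above 0.1 in all. Of differently numbered pairs 8 of 36 were above 0.1, among them Early 1 with Basal 2 (r = 0.17) and Early 2 with Basal 1 (r = 0.22). Meeting the criterion therefore does not show that the numbers mark a shared batch. Alternatives were other scalings, DESeq2 1.42.0, no filter, only the groups compared, a replicate block, leaving out each library and, chosen after seeing the data, leaving out Basal 3 and Early 3 together.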

Additional observations from a re-analysis of the deposited data

How the results depend on the processing

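Of 882 results of single subunit genes under alternatives, 749 kept their direction and side of the threshold, 68 lost and 34 gained a call, and 31 changed sign. The number of subunit genes called was 1 in Early against Basal, and 0 without scaling, with only the 2 groups, or without Basal 3 and Early 3 together. For Late against Basal it was 3, and 7 with library totals alone, 5 with totals without Rn45s, 1 without scaling and 5 without Basal 3 and Early 3. For Reactivated against Basal it was 1, and 4 with totals alone, 3 with totals without Rn45s, 0 without scaling, and 2 with DESeq2, without the filter, or without Basal 3 and Early 3. For Reactivated against Early it was 3, and 1 without scaling and 0 with only the 2 groups. For Reactivated against Late it was 2, and 4 with totals alone, and 1 with totals without Rn45s, without scaling or with the replicate block. For any difference among groups it was 4, and 7 with totals alone and 1 without scaling. Without scaling, 368, 4473, 2264, 1584 and 1746 of all genes were called in Early, Late and Reactivated against Basal, Reactivated against Early and Reactivated against Late. With only the 2 groups, 2633 were called in Reactivated against Early. With each replicate left out in turn, the subunit genes called numbered 0 to 1 in Early against Basal, 1 to 5 in Late against Basal, 1 to 2 in Reactivated against Basal, 2 to 3 in Late against Early, 0 to 3 in Reactivated against Early, 1 to 2 in Reactivated against Late and 4 to 5 for any difference. All genes called ranged from 488 to 1224, 6101 to 8320, 4193 to 6613, 4781 to 7252, 1703 to 4604 and 2135 to 3827 in the same 6 comparisons. The cause of these shifts was not tested.

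Signs turned as follows, on the log2 scale. With library totals alone, Grin1 was -0.067 in Early, -0.55 in Late and -0.34 in Reactivated against Basal, -0.48 in Late and -0.27 in Reactivated against Early, and 0.21 in Reactivated against Late. Under it Grin2d was -0.65 in Late against Basal, Grin3a was -0.32 in Reactivated against Basal and -0.62 in Late against Early, and Grin2a was 0.28 in Reactivated against Late. With totals without Rn45s, Grin1 was -0.048 in Early, -0.072 in Late and -0.088 in Reactivated against Basal and -0.024 and -0.040 in Late and Reactivated against Early, Grin2d was -0.18 in Late against Basal, Grin3a was -0.071 in Reactivated against Basal and -0.15 in Late against Early, and Grin2a was 0.060 in Reactivated against Late. Without scaling, Grin2a was 0.10 in Early against Basal and in Reactivated against Late, Grin2d was -0.15 in Late against Basal, Grin3a was -0.28 in Late against Early, and Grin1 was -0.18 in Late and -0.15 in Reactivated against Early and 0.027 in Reactivated against Late. Without Basal 3 and Early 3 together, Grin1 was -0.0051 in Early against Basal and Grin3a was -0.069 in Late against Early. With each replicate left out in turn, Grin1 ranged from -0.038 (without Early 3) to 0.094 in Early against Basal, Grin3a from -0.065 (without Early 3) to 0.32 in Late against Early, and Grin3b from -0.68 to 0.15 (without Reactivated 3) in Reactivated against Basal. With totals alone the median of all genes moved by -0.87 and -0.46 in Late and Reactivated against Basal, and Grin2a relative to it was -0.49 in Late.

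Both ratio tests kept their side of the threshold with each library left out (adjusted p of 0.000649 to 0.0112 for Grin2a to Grin2b, and 0.00162 to 0.0108 for Grin2a plus Grin2b to Grin1, exact permutation tests). In the 5 comparisons other than Early against Basal the criterion for pairing by number was not met, which does not show that pairing was absent. In Reactivated against Late the same-numbered pairs had r of 0.059, 0.066 and 0.17. A replicate block lost the calls of Grin2d in Reactivated against Late (adjusted p = 0.0566, edgeR), Grin2a in Late against Early (0.0624) and Grin2b in Reactivated against Early (0.0556). In Early against Basal, where the criterion for pairing was met, the block kept the 1 call, and 928 of all genes were called. Some differently numbered pairs there were also above 0.1, so pairing by number was not established. Of 270 counts of listed genes under alternatives, 53 moved by over 1.5 times. Depth limits Grin2c and Grin3b most.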
